A study of Homo sapiens with 8 samples.

Results

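Cytosolic ribosomal proteins are the protein parts of the ribosomes that translate nuclear-encoded mRNA. Their genes were taken from the tables by symbol: RPL or RPS followed by a number with an optional suffix, together with RPSA, RPLP0, RPLP1 and RPLP2, leaving out the RPS6K kinases and names with a hyphen or dot. The rule used no measured value and gave 87 genes of 24252 rows, 53 of the large subunit and 34 of the small subunit, all annotated as protein-coding. Total RNA had been sequenced from HaCaT cells, an immortalised human keratinocyte line. The 4 OGD-R libraries came from HaCaT cells labelled with the treatment OGD/R, deprivation of oxygen and glucose followed by their return, at a stage called early. The 4 Control libraries came from HaCaT cells with no treatment label. The sources used here do not give the times of deprivation and return. Nothing says that the libraries of a group are of separate cultures. A p-value here therefore sets the difference between groups only against the spread among these libraries, and that spread may be technical.

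A ribosome needs its proteins in near-equal numbers, and proliferating cells devote a large part of their mRNA to them. Most of these mRNAs begin with a cytosine followed by a run of pyrimidines, the terminal oligopyrimidine (TOP) motif, through which the kinase complex mTORC1 and the RNA-binding protein LARP1 set their translation and stability. Deprivation of nutrients or oxygen is known to lower mTORC1 activity, which can hold TOP mRNAs out of polysomes without changing their amount. RNA levels such as these therefore do not measure translation.

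The libraries did not form 2 tight groups. Over the 11740 genes tested, log2 values correlated at 0.992 to 0.993 between OGD-R libraries, at 0.992 between Controls 1 and 2 and at 0.991 between Controls 3 and 4, but at 0.874 to 0.881 between these pairs of Controls. OGD-R libraries correlated at 0.940 to 0.947 with Controls 1 and 2 and at 0.879 to 0.887 with Controls 3 and 4. They were thus closer to Controls 1 and 2 than the pairs of Controls were to each other. Results are therefore also given with either pair of Controls left out. The spacing of low values implied between 16800000 and 24900000 fragments per library, an estimate that rests on few values. All 10 keratinocyte markers averaged at least 1 FPKM (fragments per kilobase of transcript, scaled to the library's mapped fragments), and their summed level was 16162 to 17106 FPKM in OGD-R and 13024 to 21507 FPKM in Control. Of the markers of other cells, 1 of 7 for fibroblasts, 0 of 4 for melanocytes, 1 of 4 for immune cells and 0 of 3 for endothelium averaged 1 FPKM or more, with summed levels of at most 5.08, 0.666, 3.801 and 0.463 FPKM in OGD-R and 8.72, 0.427, 16.7 and 0.146 FPKM in Control. The summed immune markers did not overlap between groups, at 3.06 to 3.80 FPKM in OGD-R and 12.3 to 16.7 FPKM in Control. Melanocyte markers (0.543 to 0.666 against 0.135 to 0.427 FPKM) and endothelial markers (0.296 to 0.463 against 0.0475 to 0.146 FPKM) were higher in OGD-R. Fibroblast markers overlapped. Of the markers of other cells, only COL1A2 for fibroblasts and TYR for melanocytes were listed at 0 in all 8 libraries. The part of these markers in the results was not tested.

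Of the 87 genes, 83 averaged at least 1 FPKM and were tested, 51 of the large and 32 of the small subunit. The other 4 were RPL3L, RPL10L, RPS4Y1 and RPS4Y2. Ribosomal protein mRNAs were abundant in both groups: the median of the 83 mean levels was 480 FPKM in OGD-R and 480 FPKM in Control. In OGD-R 73 genes averaged above 100 FPKM, against 70 in Control, and 11 averaged above 1000 FPKM in OGD-R, against 9 in Control. The genes RPL22L1, RPL26L1, RPL37, RPL39L, RPL7L1, RPS27L and RPS28 averaged under 50 FPKM in both groups. Large-subunit genes had a median level of 447 FPKM in OGD-R and 422 FPKM in Control, and small-subunit genes of 510 FPKM in OGD-R and 515 FPKM in Control.

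Together the genes took 8.98%, 10.04%, 9.92% and 9.19% of the summed FPKM in OGD-R libraries 1 to 4, against 10.1%, 9.08%, 9.77% and 9.12% in Control libraries 1 to 4. The mean share was 9.53% ± 0.529 in OGD-R and 9.52% ± 0.513 in Control (SD, n = 4 each), so the groups overlapped and their means lay closer than the spread within either. Transcripts of the mitochondrial genome, which are not ribosomal protein mRNAs but enter the same total, took 27.9% ± 1.02 in OGD-R and 20.2% ± 1.94 in Control. With those left out of the total, ribosomal proteins took 12.4%, 13.7%, 13.8% and 13.0% in OGD-R, against 12.8%, 11.4%, 11.8% and 11.7% in Control. Control 1 then lay within the OGD-R range and the other Controls below it. FPKM are relative to the library, so a change in total ribosomal protein mRNA per cell cannot be read from them, and in bulk RNA fewer cells of a kind and less RNA per cell cannot be told apart.

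The large and small subunits kept a near-constant balance in OGD-R cells. The summed large-subunit FPKM was 1.46, 1.46, 1.48 and 1.45 times the summed small-subunit FPKM in OGD-R libraries 1 to 4, against 1.37, 1.37, 1.47 and 1.58 times in Control libraries 1 to 4. The mean was 1.46 ± 0.0133 in OGD-R and 1.45 ± 0.101 in Control (SD, n = 4 each). The 4 OGD-R values lay between those of Controls 1 and 2 and that of Control 4.

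**Figure D1:**
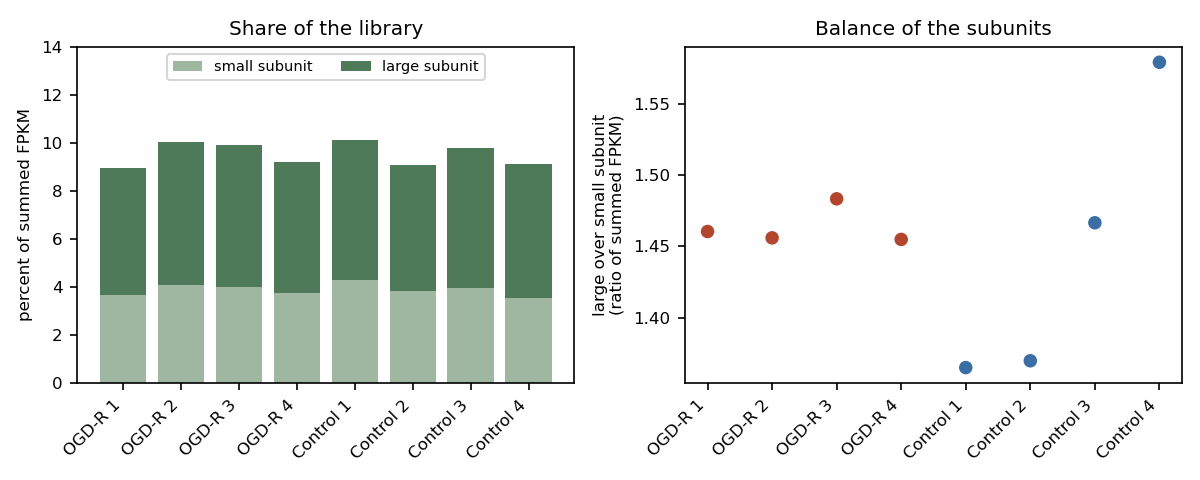
Share of each library's summed FPKM held by large- and small-subunit ribosomal protein genes (left, stacked bars, percent) and the ratio of large- to small-subunit summed FPKM (right), for 4 OGD-R and 4 Control libraries. Total shares lie between 8.98% and 10.1%, and the ratio is near 1.46 in all OGD-R libraries but spreads from 1.37 to 1.58 in Control.

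Very few ribosomal protein genes were called between OGD-R and Control cells with all libraries in the fit. The paralogue RPL22L1 was the only one of them called lower in OGD-R. Of the 83 genes, 2 were called at an adjusted p under 0.05 (limma on log2(FPKM + 1), Benjamini-Hochberg over all 11740 genes), 1 higher and 1 lower. Among all genes tested 10.2% were called higher and 9.69% lower, so the share of ribosomal protein genes called, 1.2% in each direction, was below the background. The count called higher was 0 when OGD-R 2, OGD-R 3, OGD-R 4, Control 2 or Control 3 was left out, 1 without Control 1 and 2 without OGD-R 1 or Control 4, while the count called lower was 1 each time. Each library was also scaled to its total without these genes and without transcripts of the mitochondrial genome. Then 7 ribosomal protein genes were called higher, among them RPL10A, RPL17, RPL22, RPL3, RPS24 and RPS4X, and RPL22L1 was called lower. The same scaling moved the calls over all genes to 15.2% higher and 7.17% lower and the median change of all genes to 0.10 on the log2 scale, against 0.02 without it.

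The differences were small as well as seldom called. The log2 fold change of OGD-R over Control was within 0.5 of 0 for 81 of the 83 genes, 97.6%, compared with 75.9% of all genes tested. Its median size regardless of sign was 0.13 for ribosomal protein genes and 0.26 for all genes. All genes tested were taken from a mean of 1 FPKM up and were not matched to the ribosomal protein genes for level. The part of level in these contrasts was not tested. The median signed change was 0.09 for the 83 genes against 0.02 for all genes, and it was 0.09 in each subunit. The change was above 0 in 35 of 51 large-subunit and 20 of 32 small-subunit genes. All 4 OGD-R libraries lay above all 4 Controls for 6 genes, among them RPL10A, RPL22, RPL3, RPS4X and RPS6, and below them for 3 (RPL22L1, RPL4 and RPL8), where over all genes tested 15.2% lay wholly above and 14.8% wholly below.

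**Figure D2:**
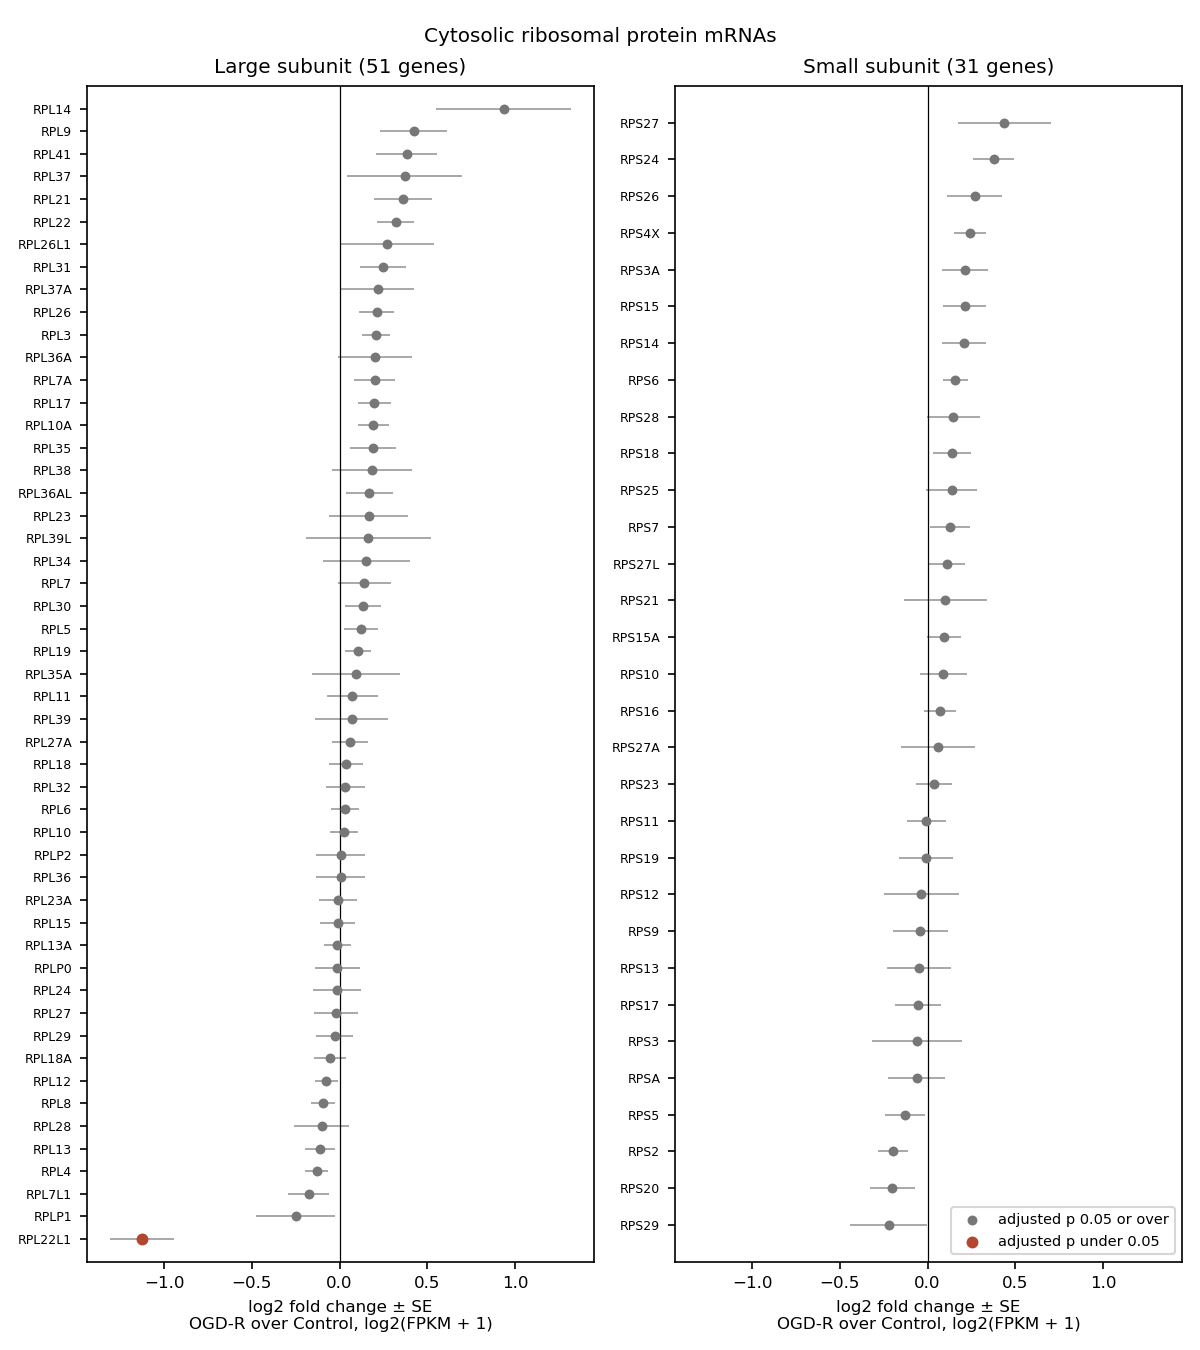
Log2 fold change of OGD-R over Control for 82 ribosomal protein genes, with bars of 1 standard error from limma, ordered by value within 51 large-subunit and 31 small-subunit genes. Most points lie within 0.5 of 0; RPL22L1 stands lowest at -1.12, and RPL14 highest at 0.93 with a wide error.

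RPL22L1 and RPL22 are paralogues that can take the same place in the large subunit. Both bind RNA outside the ribosome, and in mice the RPL22 protein is known to lower the amount of the RPL22L1 mRNA. RPL22L1 (ENSG00000163584, GRCh38 chr3:170864875-170870483, minus strand) was at 8.60, 12.8, 9.12 and 12.6 FPKM in OGD-R libraries 1 to 4, against 24.7, 21.2, 32.4 and 20.7 FPKM in Control libraries 1 to 4. Every OGD-R library lay below every Control, including both pairs of Controls. The mean was 10.8 ± 2.23 FPKM in OGD-R and 24.7 ± 5.40 FPKM in Control, so that the log2 fold change was -1.12 with an SE of 0.183 (limma adjusted p = 0.00462). With Controls 1 and 2 left out it was -1.21 (limma adjusted p = 0.000455), and with Controls 3 and 4 left out -1.04 (limma adjusted p = 0.000477). RPL22L1 was called lower under every processing alternative tried, including each single library left out. Among the genes called lower over all genes, 184 had a fold change as low as or lower than that of RPL22L1, which counts it among them.

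RPL22 (ENSG00000116251, chr1:6185020-6209389, minus strand) lay on the other side. It was at 152, 203, 173 and 170 FPKM in OGD-R, against 149, 144, 133 and 130 FPKM in Control, and the groups did not overlap, though OGD-R 1 and Control 1 lay close together. The mean was 174 ± 21.1 FPKM in OGD-R and 139 ± 9.03 FPKM in Control, and the log2 fold change of 0.32, with an SE of 0.107, did not pass the threshold (limma adjusted p = 0.0695). Without Controls 1 and 2 the change was 0.40 and was called (limma adjusted p = 0.00681), and without Controls 3 and 4 it was 0.24 and was not (limma adjusted p = 0.0647). Per kilobase, RPL22 mRNA was the more abundant of the pair in all 8 libraries.

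**Figure D3:**
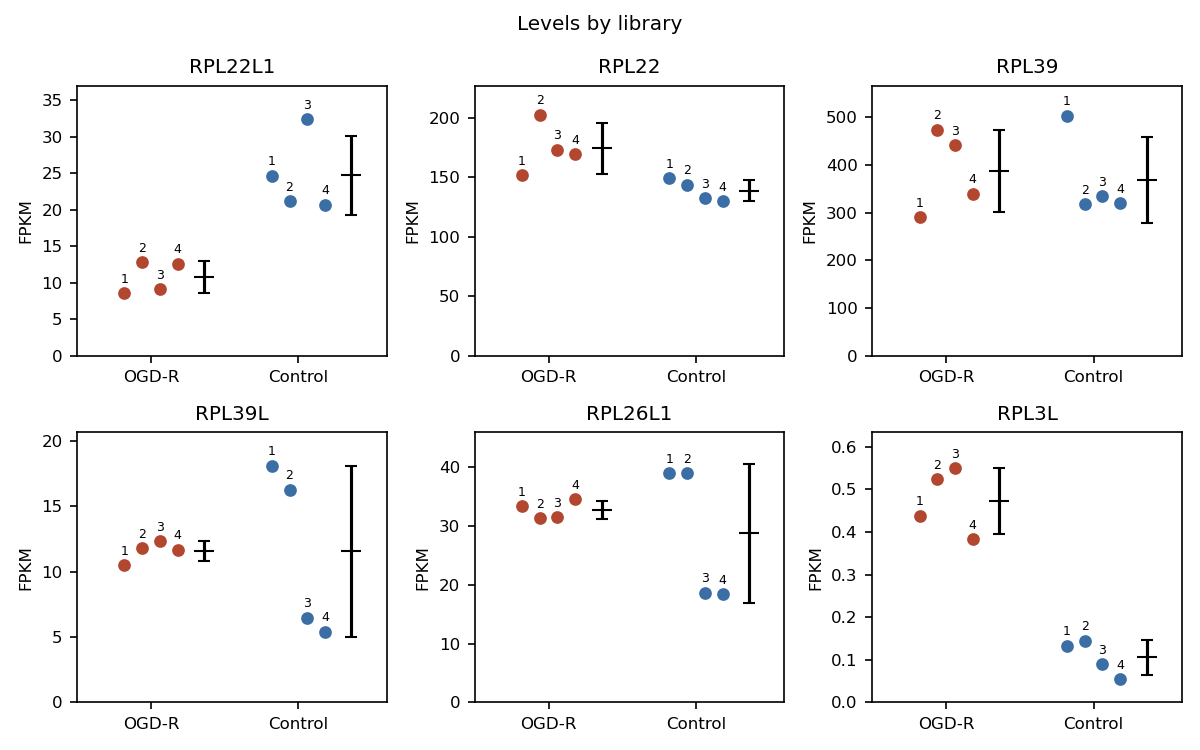
FPKM per library (points) with the group mean and SD (bars) for RPL22L1, RPL22, RPL39, RPL39L, RPL26L1 and RPL3L in 4 OGD-R and 4 Control libraries, with a separate linear axis for each gene. RPL22L1 is below every Control in OGD-R, while the Controls of RPL39L and RPL26L1 lie in pairs on either side of the OGD-R libraries.

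The windows around the transcription starts were searched for runs of pyrimidines, as in the letters of a TOP motif. A run could begin before the start base, so part or all of it may lie outside the mRNA. RefSeq promoter windows (GRCh38.p14) were matched by symbol for 70 of the 87 genes, and 20 bases before and 20 bases from the annotated start were read. Of the 70 genes 59 had 1 window, and a gene with several counts where any of them holds the feature. A run of at least 7 C or T within 5 bases of the start was found in 56 of 70 ribosomal protein genes (80%), in 17.4% of 69 mitochondrial ribosomal protein genes and in 19.2% of 27305 genes of all kinds. The start base was C in 74.3% of ribosomal protein genes and in 18% of all genes. Shown are the windows of RPL22 and RPL22L1 and of 2 other pairs of paralogues with 1 window a gene, together with that of RPL14, described further on. Each is read on the gene's own strand, with the start base at position 21 and the longest C or T run near it in capitals.
RPL22: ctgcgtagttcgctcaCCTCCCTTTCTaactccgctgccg
RPL22L1: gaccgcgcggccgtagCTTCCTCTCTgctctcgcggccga
RPS27: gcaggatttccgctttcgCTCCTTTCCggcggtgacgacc
RPS27L: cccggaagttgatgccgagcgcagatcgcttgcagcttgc
RPL36A: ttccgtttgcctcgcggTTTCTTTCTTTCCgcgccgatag
RPL36AL: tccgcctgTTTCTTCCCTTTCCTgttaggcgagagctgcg
RPL14: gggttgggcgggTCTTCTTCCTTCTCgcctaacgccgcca
They lie at chr1:6199576-6199615 (minus strand, RPL22), chr3:170870176-170870215 (minus, RPL22L1), chr1:153990742-153990781 (plus, RPS27), chr15:63157458-63157497 (minus, RPS27L), chrX:101390991-101391030 (plus, RPL36A), chr14:49620607-49620646 (minus, RPL36AL) and chr3:40457319-40457358 (plus, RPL14). RPL22 and RPL22L1 both hold a pyrimidine run across the start. RPS27L is the only one of the 7 without one. The string CTTTCC, read on the gene's strand, was in the windows of 21 of 70 ribosomal protein genes (30%) and of 2.56% of all genes, and on the other strand in 1.43% and 2.01%. These are matches of letters and do not locate the start used in HaCaT cells.

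The other genes described here whose groups did not overlap showed smaller differences that were not called with all libraries. All of them but RPS4X were named after their values were seen. RPL3, RPL10A and RPS4X were called higher with Controls 1 and 2 left out. RPL3 and RPL4 encode proteins that reach the peptidyl transferase centre and the exit tunnel. RPL3 was at 868, 848, 854 and 853 FPKM in OGD-R, against 803, 753, 760 and 657 FPKM in Control (log2 fold change 0.21, limma adjusted p = 0.112). RPL4 was at 821, 840, 865 and 874 FPKM in OGD-R, against 929, 898, 970 and 928 FPKM in Control (log2 fold change -0.13, limma adjusted p = 0.207). Both were near constant within OGD-R and overlapped with no Control library. RPL8, also near the peptidyl transferase centre, had a log2 fold change of -0.09 (limma adjusted p = 0.362). Scaling to the total without ribosomal protein genes and transcripts of the mitochondrial genome turned its sign to 0.0017. RPL10A, of the mobile stalk at the exit for transfer RNA, had 0.19 (limma adjusted p = 0.166), and RPS6, the main phosphorylated protein of the small subunit, had 0.16 (limma adjusted p = 0.161). RPS4X, the X-linked form of a small-subunit protein, was at 638, 656, 631 and 660 FPKM in OGD-R, against 598, 585, 539 and 473 FPKM in Control (log2 fold change 0.24, limma adjusted p = 0.104).

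None of the 4 most abundant ribosomal protein mRNAs was called with all libraries; RPL7A was called higher with Controls 1 and 2 left out (0.40, limma adjusted p = 0.000855) and RPS2 lower with Controls 3 and 4 left out (-0.30, limma adjusted p = 0.00519). RPS2, a small-subunit protein at the mRNA entry, was at 1963, 1780, 1829 and 1943 FPKM in OGD-R, against 2371, 2243, 1933 and 2083 FPKM in Control (log2 fold change -0.20, limma adjusted p = 0.148). RPL7A, a large-subunit protein, was at 1913, 1879, 1926 and 1881 FPKM in OGD-R, against 1958, 1831, 1487 and 1403 FPKM in Control (log2 fold change 0.20, limma adjusted p = 0.260). Its OGD-R libraries lay together, with Control 1 above them and the other Controls below. RPLP0, the base of the stalk that binds translation factors, was at 1711, 1694, 1450 and 1430 FPKM in OGD-R, against 1819, 1528, 1748 and 1285 FPKM in Control (log2 fold change -0.01, limma adjusted p = 0.949). RPL19, a large-subunit protein, was at 1485, 1595, 1636 and 1532 FPKM in OGD-R, against 1500, 1336, 1472 and 1501 FPKM in Control (log2 fold change 0.11, limma adjusted p = 0.352). Groups overlapped for RPLP0 and RPL19, and for RPS2 only through Control 3.

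Several further paralogues followed the split among the Controls. RPL39L, a form of the exit-tunnel protein RPL39 that is abundant in testis, was at 10.5, 11.8, 12.3 and 11.7 FPKM in OGD-R, against 18.1, 16.2, 6.49 and 5.41 FPKM in Control (limma adjusted p = 0.780). The OGD-R libraries lay between the pairs of Controls. RPL39L was called higher without Controls 1 and 2, at a log2 fold change of 0.86 (limma adjusted p = 2.9e-05), and lower without Controls 3 and 4, at -0.53 (limma adjusted p = 0.000557). RPL39 itself was at 291, 474, 442 and 340 FPKM in OGD-R, against 503, 318, 335 and 320 FPKM in Control (limma adjusted p = 0.847). RPL26L1, a near-identical paralogue of the large-subunit protein RPL26, was at 33.4, 31.4, 31.5 and 34.6 FPKM in OGD-R, against 39.0, 39.0, 18.7 and 18.4 FPKM in Control (limma adjusted p = 0.513). It was called higher (log2 fold change 0.79) with Controls 1 and 2 left out and called lower (-0.25) with Controls 3 and 4 left out. RPL7L1, a relative of RPL7, was at 38.7, 37.3, 37.6 and 39.5 FPKM in OGD-R, against 48.9, 50.3, 39.0 and 37.0 FPKM in Control, and was called lower only without Controls 3 and 4 (log2 fold change -0.36, limma adjusted p = 0.000627).

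The remaining pairs were not called in either gene with all libraries in the fit. RPS27 was at 326, 567, 599 and 419 FPKM in OGD-R, against 357, 232, 342 and 487 FPKM in Control (limma adjusted p = 0.280). RPS27L, its paralogue, was at 2.80, 3.34, 4.04 and 3.57 FPKM in OGD-R, against 2.96, 3.14, 3.22 and 3.06 FPKM in Control (limma adjusted p = 0.494). RPL36A was at 201, 279, 334 and 232 FPKM in OGD-R, against 226, 170, 214 and 303 FPKM in Control (limma adjusted p = 0.536), and RPL36AL was at 86.1, 111, 118 and 99.9 FPKM in OGD-R, against 98.0, 77.9, 90.3 and 102 FPKM in Control (limma adjusted p = 0.398). All 4 genes had overlapping groups. The row for the readthrough transcript RPL36A-HNRNPH2, which shares exons with RPL36A, was at 56.2, 2.28, 61.2 and 61.2 FPKM in OGD-R, against 20.2, 21.7, 29.2 and 0.621 FPKM in Control, so how reads were divided between these rows is uncertain.

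The tissue-restricted forms RPL3L and RPL10L were near or at 0. RPL3L, which replaces RPL3 in heart and skeletal muscle, was at 0.438, 0.524, 0.550 and 0.382 FPKM in OGD-R, against 0.133, 0.145, 0.0899 and 0.0541 FPKM in Control. The OGD-R libraries lay above the Controls. At the estimated depths, which are uncertain, 1 fragment on its coding length would be worth 0.0329 to 0.0486 FPKM. It was called higher when no minimum level was set. RPL10L, a testis form, was listed at 0 in all 8 libraries.

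The set of ribosomal protein genes called depended on which pair of Controls was kept. Without Controls 1 and 2, 21 genes were called higher, 12 of the large and 9 of the small subunit, and RPL22L1 and RPL28 were called lower. That is 25.3% higher and 2.41% lower, against 39.2% higher and 28.4% lower over all genes tested. Without Controls 3 and 4, 7 genes were called higher, among them RPL14, RPL26, RPL37, RPL41, RPS24 and RPS27, and 13 lower, 5 of the large and 8 of the small subunit. That is 8.43% higher and 15.7% lower, against 22.8% higher and 32.4% lower over all genes. RPL22L1 was called lower in both fits, while RPL26L1, RPL39L and RPS9 were called with opposite signs. RPS9, a small-subunit protein with a part in decoding, was higher by 0.22 on the log2 scale against Controls 3 and 4 (limma adjusted p = 0.0306), while its log2 fold change against Controls 1 and 2 was -0.31 (limma adjusted p = 0.00301).

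Mitochondrial ribosomal proteins, which build the separate ribosome of mitochondria and lack TOP mRNAs as a class, followed the Control split in nearly one direction. With all libraries, 0 of 78 were called higher and 1 lower by limma, MRPS30 (log2 fold change -0.39, adjusted p = 0.0128), a call that did not hold without OGD-R 2 (adjusted p = 0.0527) or OGD-R 3 (0.0525). Over all genes tested 10.2% were called higher and 9.69% lower in this fit. At an unadjusted p under 0.05, 1 of the 78 was higher and 4 were lower. Without Controls 1 and 2, 60 of the 78 were called higher and 2 lower, where 39.2% of all genes were higher and 28.4% lower. The median log2 fold change of the 78 was 0.41. Without Controls 3 and 4, 0 of the 78 were called higher and 59 lower, where 22.8% of all genes were higher and 32.4% lower. The median of the 78 was then -0.40. The medians of the cytosolic genes in the same fits were 0.15 and -0.01, and those of all genes 0.09 and -0.05. The fits share the OGD-R libraries, and the difference between the gene sets was not tested.

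Variation among libraries of 1 group was larger for ribosomal protein genes with short coding sequences. Coding lengths ran from 75 to 1281 bases. In OGD-R the median SD of log2 values was 0.28 for the 11 genes under 300 bases, 0.12 for the 49 genes of 300 to under 600 bases and 0.05 for the 23 genes of at least 600 bases. Other genes of at least 50 FPKM had median SDs of 0.14, 0.08 and 0.07 in the same length classes. In Control the medians were 0.39, 0.20 and 0.15 for ribosomal protein genes and 0.39, 0.38 and 0.32 for the others. As a description across genes, which are not independent, the SD correlated with log2 coding length at r = -0.588 in OGD-R and r = -0.342 in Control over the 83 genes, compared with -0.123 and -0.0927 over 1126 other genes.

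In OGD-R libraries most of the short genes, among them RPL39, RPL41 and RPS27, lay on the same side of their group mean. RPS29 was an exception in OGD-R 2, which held its lowest OGD-R value (51.6 FPKM). In OGD-R 1, 0 of the 11 lay above its group mean and their median log2 deviation was -0.31, while in OGD-R 3 all 11 lay above it with a median of 0.22. In OGD-R 2 and OGD-R 4 the medians were 0.25 (9 above) and -0.16 (2 above). The 49 genes of middle length leaned the same way, with 6, 44, 38 and 12 of them above the mean in OGD-R 1 to 4, while the 23 long genes had median deviations between -0.004 and 0.008. The 47 other genes under 300 bases had smaller medians of the same signs, -0.11, 0.12, 0.05 and -0.07. In Control libraries 1 to 4 the short genes were more mixed, with 9, 3, 3 and 5 of 11 above the mean and medians of 0.15, -0.18, -0.11 and -0.01, and the long genes had medians of 0.14, 0.02, 0.01 and -0.17. RPL37, a short large-subunit gene, was at 25.7, 40.4, 53.3 and 27.5 FPKM in OGD-R, against 22.8, 17.4, 28.7 and 45.9 FPKM in Control. Library preparation and fragment size were not given per library, and the part of such steps in this pattern was not tested.

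**Figure D4:**
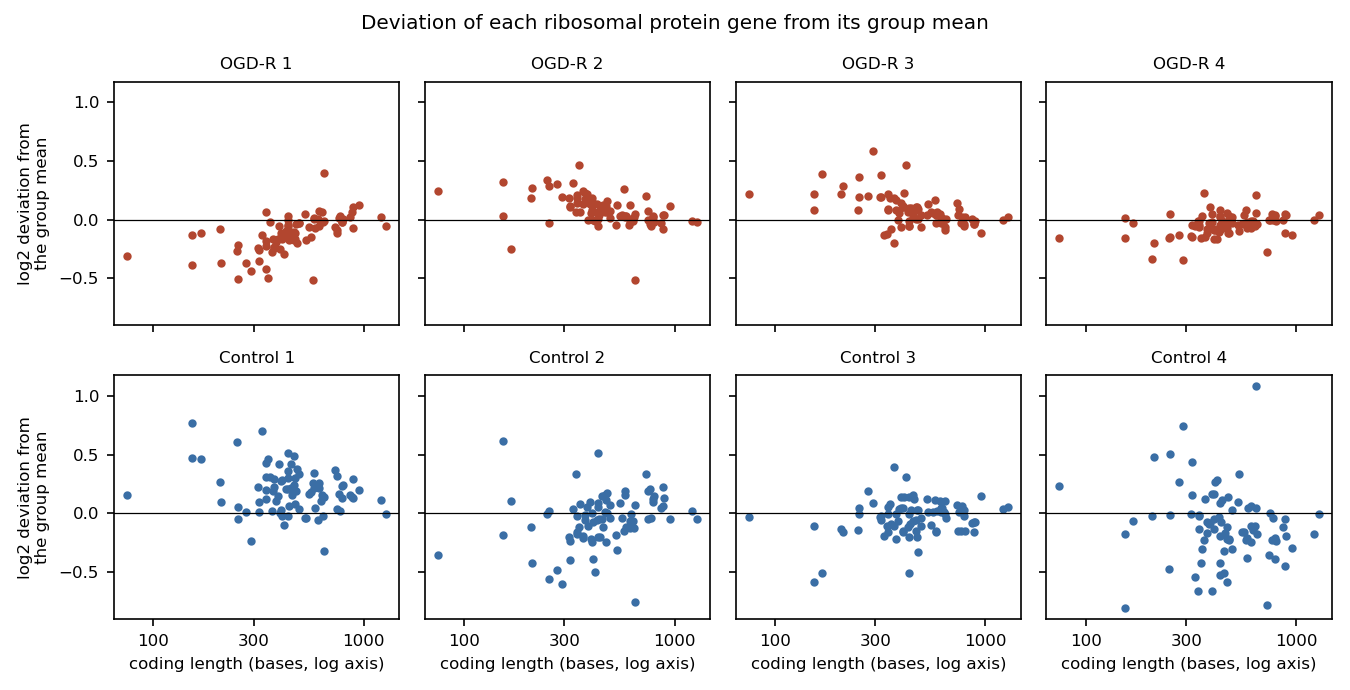
Log2 deviation of each of the 83 ribosomal protein genes from its own group mean (vertical axis) against coding length in bases (horizontal log axis), 1 panel per library. The scatter narrows with length in OGD-R, and genes under 300 bases lie below 0 in OGD-R 1 and above 0 in OGD-R 3.

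RPL14, a large-subunit protein with a coding length of 645 bases, had the highest fold change of the 83 but did not pass the threshold. It was at 196, 104, 140 and 172 FPKM in OGD-R, against 61.6, 45.4, 76.9 and 165 FPKM in Control. Control 4 lay among the OGD-R libraries and the other Controls below them. Its change was 0.93 on the log2 scale with an SE of 0.383 (limma adjusted p = 0.125). RPL14 was called higher without Controls 3 and 4 (1.47, limma adjusted p = 0.00049) and without Control 4.

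RACK1 and FAU also encode ribosome components, though their symbols fall outside the naming rule. Neither passed the threshold in the limma fit of all genes averaging at least 1 FPKM. RACK1, a scaffold on the small subunit that takes part in signalling and in sensing collided ribosomes, was at 684, 693, 713 and 725 FPKM in OGD-R, against 794, 793, 880 and 853 FPKM in Control. All OGD-R libraries lay below all Controls, at a log2 fold change of -0.24 with an SE of 0.0721 (limma adjusted p = 0.0532). With a minimum mean of 5 FPKM RACK1 was called lower (limma adjusted p = 0.0475). Leaving out Controls 1 and 2 gave -0.30 (limma adjusted p = 0.00296), and leaving out Controls 3 and 4 gave -0.17 (limma adjusted p = 0.0265). FAU, which encodes a small-subunit protein fused to a ubiquitin-like protein, was at 170, 189, 175 and 178 FPKM in OGD-R, against 287, 221, 148 and 121 FPKM in Control (limma adjusted p = 0.915). The OGD-R libraries lay within the Control range, between the pairs of Controls. FAU was called higher with Controls 1 and 2 left out (0.41, limma adjusted p = 0.00252) and lower with Controls 3 and 4 left out (-0.50, limma adjusted p = 0.00203).

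Many factors that assemble ribosomes were lower in OGD-R cells. Of 32 assembly genes tested, 13 were called lower and 0 higher by limma (17 lower and 0 higher at an unadjusted p under 0.05), with a median log2 fold change of -0.35. Over all genes tested 9.69% were called lower and 10.2% higher. NOB1, the endonuclease that finishes the small-subunit RNA, averaged 50.2 ± 2.58 FPKM in OGD-R and 79.2 ± 3.69 FPKM in Control (-0.65, limma adjusted p = 0.00131). RRP12, which takes part in export of the subunits, averaged 15.5 ± 1.40 FPKM in OGD-R and 27.0 ± 1.96 FPKM in Control (-0.77, limma adjusted p = 0.00147). UTP4, a part of the small-subunit processome, averaged 41.0 ± 2.59 FPKM in OGD-R and 73.8 ± 9.47 FPKM in Control (-0.83, limma adjusted p = 0.00187). BYSL, a small-subunit maturation factor, averaged 12.4 ± 0.658 FPKM in OGD-R and 19.5 ± 1.35 FPKM in Control (-0.61, limma adjusted p = 0.00217). Without Controls 1 and 2, 16 of the 32 were called lower and 6 higher, where 28.4% of all genes were lower and 39.2% higher. Without Controls 3 and 4, 28 were called lower and 0 higher, where 32.4% of all genes were lower and 22.8% higher.

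TOP mRNAs outside the ribosome, such as those of elongation factors, were not called either. Of 18 tested, 0 were called by limma in either direction (2 higher and 0 lower at an unadjusted p under 0.05), with a median of -0.03. Over all genes tested 10.2% were called higher and 9.69% lower. With Controls 1 and 2 left out 4 of the 18 were called higher and 3 lower, where 39.2% of all genes were higher and 28.4% lower. With Controls 3 and 4 left out 1 was called higher and 4 lower, where 22.8% of all genes were higher and 32.4% lower. Among 17 genes of mTORC1 and TOP regulation, SESN1, an inhibitor of mTORC1 signalling, was called higher at 3.89 ± 0.499 FPKM in OGD-R and 2.72 ± 0.236 FPKM in Control (0.39, limma adjusted p = 0.0328). EIF4EBP1, the translation repressor that mTORC1 phosphorylates, was called lower at 30.9 ± 3.70 FPKM in OGD-R and 62.8 ± 21.3 FPKM in Control (-0.94, limma adjusted p = 0.0256). The SESN1 call did not hold without OGD-R 1, 2 or 4 or Control 1 or 2 (limma adjusted p = 0.0589 to 0.102), with no minimum level (0.0585) or relative to the median ribosomal protein gene (0.171). The EIF4EBP1 call did not hold with any 1 OGD-R library left out (limma adjusted p = 0.0512 to 0.0782), without Control 3 (0.057) or relative to the median ribosomal protein gene (0.0554). Its log2 fold change was -1.37 with Controls 1 and 2 left out and -0.52 with Controls 3 and 4 left out, called in both. The median of these 17 was -0.09.

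Among 12 genes of RNA polymerase I and MYC, which drive ribosomal RNA synthesis, the promoter-selectivity factor subunits TAF1A and TAF1C were called with opposite signs. TAF1A was lower at 5.29 ± 0.573 FPKM in OGD-R and 11.6 ± 0.520 FPKM in Control (-1.003, limma adjusted p = 0.000319). TAF1C was higher at 9.98 ± 0.689 FPKM in OGD-R and 7.38 ± 0.965 FPKM in Control (0.40, limma adjusted p = 0.0327). The TAF1C call did not hold with any 1 OGD-R library left out (limma adjusted p = 0.0682 to 0.0982), without Control 3 (0.0725) or Control 4 (0.058), or relative to the median ribosomal protein gene (0.0736). Its log2 fold change was 0.53 with Controls 1 and 2 left out and 0.26 with Controls 3 and 4 left out. The median of the 12 was -0.31. Over all genes tested 10.2% were called higher and 9.69% lower. Among 12 genes that sense or rescue stalled ribosomes, with a median of -0.14, NEMF, which marks stalled nascent chains, was called higher at 17.2 ± 0.627 FPKM in OGD-R and 11.7 ± 0.746 FPKM in Control (0.52, limma adjusted p = 0.00344). ZNF598, a ubiquitin ligase for collided ribosomes, was called lower at 11.9 ± 1.17 FPKM in OGD-R and 28.0 ± 7.96 FPKM in Control (-1.13, limma adjusted p = 0.00582). MAP3K20, the kinase ZAK, was called lower at 9.57 ± 0.595 FPKM in OGD-R and 12.5 ± 0.313 FPKM in Control (-0.35, limma adjusted p = 0.0162), which did not hold without OGD-R 3 (0.061) or OGD-R 4 (0.0524) or relative to the median ribosomal protein gene (0.0752).

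**Figure D5:**
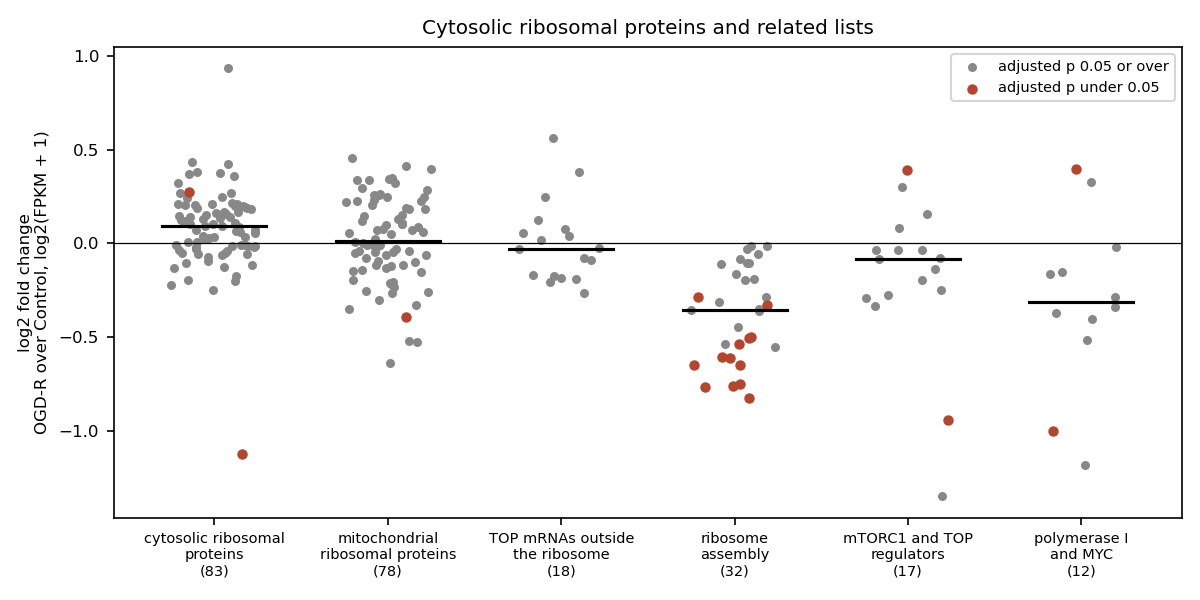
Log2 fold change of OGD-R over Control for each tested gene of 6 lists, with a line at each list's median: cytosolic ribosomal proteins (83), mitochondrial ribosomal proteins (78), TOP mRNAs outside the ribosome (18), ribosome assembly (32), mTORC1 and TOP regulators (17) and RNA polymerase I and MYC (12). Cytosolic ribosomal proteins crowd around their median of 0.09, while assembly genes lie mostly below 0 with a median of -0.35.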

How the data were processed

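For each library the authors deposited a table of gene IDs, symbols and values, in a unit the tables do not name. No aligner, counting tool, build or annotation is named by the sources used here. The deposited values were taken to be FPKM from low values of 940 single-exon genes. Of 123 to 162 low values per library, 8 to 17 lay at a common constant divided by length, taken as 1 fragment. Another 31 to 64 lay below that step, so this reading is uncertain. For any other unit the depths given do not hold. Per the labels' protocols, both a NEBNext and a SMARTer kit were used. FPKM divides by length and library total, so a group of genes that gains share lowers all others.

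All 19974 Ensembl IDs were found in GENCODE 29 (GRCh38), which gave coordinates and coding lengths; 4278 rows were newly assembled genes. GENCODE 29 names 1133 ribosomal protein pseudogenes, none with a row here, and reads from such copies and from near-identical paralogues may be divided in ways not known. The values log2(FPKM + 1) of the 11740 genes averaging at least 1 FPKM were tested with limma 3.58.1 (R 4.3.3, intensity trend, two-sided, Benjamini-Hochberg, threshold 0.05), a scale that understates the change of low genes. No count model was run. Alternatives were other pseudocounts, filters, scalings, no trend, a replicate block, and left-out libraries. Promoter windows are RefSeq's for GRCh38.p14.

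Genes were named by rule: called genes, the 4 highest by mean, and the paralogues; RPL14, RPS9, RPL3, RPL4, RPL8, RPL10A, RPS6, RPL37 and the readthrough gene were added after their values were seen. Up to 4 called genes with the smallest p were named in each other list. The genes and lists were chosen with earlier results of these data known. Of 9 snoRNA host genes listed, none had a row, and they are not analysed here. No 2 libraries shared more than 1 identical value above 0. Some genes of the lists are not reported here.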

Additional observations from a re-analysis of the deposited data

Results flagged for a closer look

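Library values of the named genes were examined for a sample far from the others in its group, by Dixon's 95% critical value for groups of 4. Of 84 groups examined 3 were flagged, where chance flags about 1 in 20. Control 1 held 502.6 FPKM of RPL39, far above the other 3 Controls. OGD-R 3 held 11.4 FPKM of BYSL and 8.69 FPKM of MAP3K20, in each case below the other OGD-R libraries.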

How the results depend on the processing

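RPL22L1 was called lower under every alternative run. Counts of ribosomal protein genes called higher were 0 without the trend and 0 relative to the median ribosomal protein gene. The count was 7 when scaled to the total without these genes and transcripts of the mitochondrial genome. It was 21 with Controls 1 and 2 left out, 7 with Controls 3 and 4 left out, and 0 to 2 with 1 library left out. Counts called lower were 2 and 13 with those pairs left out, and 1 with any 1 library left out. Leaving out the mitochondrial genome moved the difference in share, OGD-R minus Control, to 1.29 percentage points, against 0.0113. The difference in the ratio of large to small subunit was 0.0185, -0.0591 with Controls 1 and 2 left out and 0.0962 with Controls 3 and 4 left out. The causes were not tested. Over all genes, calls were 711 to 744 higher and 561 to 669 lower with 1 OGD-R library left out, and 689 higher with a minimum mean of 5 FPKM, against 1202 higher and 1138 lower.

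Signs turned only for genes not called with all libraries. The total without ribosomal protein genes and transcripts of the mitochondrial genome was used for 1 scaling. It gave log2 fold changes of 0.082 for RPLP0, 0.053 for RPS9, 0.0017 for RPL8 and 0.051 for FAU. With Controls 1 and 2 left out these were 0.063 for RPLP0, 0.012 for RPL7L1, -0.046 for RPL37, 0.22 for RPS9 and 0.41 for FAU. With Controls 3 and 4 left out they were -0.25 for RPL26L1, -0.076 for RPL39 and -0.53 for RPL39L. With 1 library left out, the range was -0.11 to 0.053 for RPLP0, -0.039 to 0.23 for RPL39, -0.11 to 0.42 for RPL39L, -0.17 to 0.071 for RPS9 and -0.24 to 0.17 for FAU. For single genes named, 625 of the recomputed values kept their direction and side of the threshold, 22 kept the direction and newly passed, 30 kept it and no longer passed, and 24 turned sign, of which those of RPL26L1, RPL39L, RPS9 and FAU with a pair of Controls left out also passed the threshold.

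Deviations of same-numbered libraries from their group means correlated weakly (r = 0.0450, 0.0646, 0.0578 and 0.0585), and not every library correlated best with its own number. OGD-R 1 and 2 correlated at 0.0450 to 0.109 with Controls 1 and 2, and OGD-R 3 and 4 at 0.053 to 0.113 with Controls 3 and 4. All other combinations were negative, at -0.106 to -0.0268. Since libraries of other numbers correlated as highly, these values cannot tell whether the numbers pair libraries. With the replicate block 0 ribosomal protein genes were called higher and 1 lower. Over all genes 625 were called higher and 507 lower. The calls of MRPS30 (limma adjusted p = 0.0709), SESN1 (0.116), EIF4EBP1 (0.067), TAF1C (0.0845) and MAP3K20 (0.09) were lost. Assembly genes called lower were 9 under the block, against 13. Depth limits genes near 0 such as RPL3L.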
